A study of Mus musculus with 6 samples.

Results

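Histone genes were followed in the tongues of carcinogen-treated mice labelled as with or without HuR. The members are the 84 gene symbols, of 24067 in the count table, that begin with Hist1h to Hist4h, H1f, H2af or H3f3. They were chosen by symbol alone, but the family was picked for description with the comparison of the labelled groups already known, so the fold changes below describe the family and do not test the choice. Of the 84, 68 lie in the histone clusters (54 named for cluster 1, 10 for cluster 2, 3 for cluster 3 and 1 for cluster 4) and 16 are variant and linker histone genes named outside the cluster scheme. H2afj, counted among the variants by its symbol, lies on chromosome 6 near Hist4h4.

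Gene counts came from 6 libraries of tongue with tumour from C57BL/6 mice, 3 labelled WT HuR and 3 labelled KO HuR, all about 34 weeks old. Every mouse, in both groups, had received the DNA-damaging carcinogen 4-nitroquinoline 1-oxide (4NQO) for 16 weeks and was then kept for 12 weeks while tongue tumours formed, so no untreated tongue was compared. Libraries were made from total RNA with the Illumina TruSeq RNA kit, and totals ran from 29543352 to 51520707 counts. The sources used here do not give the Cre driver, the deleted exons of Elavl1 or whether a tongue came from 1 animal, so p-values measure only the spread between these samples.

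Levels are normalised read counts (CPM, counts scaled to a common library size by TMM, the trimmed mean of M-values). A value after ± is the SD over 3 libraries for a level and the standard error for a log2 fold change, which is always taken as labelled KO against labelled WT. The test was the quasi-likelihood test of edgeR, with p-values adjusted by Benjamini-Hochberg over all 15903 genes tested and a threshold of 0.05. Elavl1, which encodes HuR, stood at 65, 59.3 and 78.4 CPM in the 3 libraries labelled KO and at 61.7, 55.8 and 48.0 CPM in those labelled WT. The groups overlapped, with means of 67.6 ± 9.81 and 55.1 ± 6.91 CPM (SD, n = 3; 2-sided exact permutation p = 0.2, the smallest possible being 0.1; edgeR log2 fold change 0.29 ± 0.15, adjusted p = 0.18). Gene-level counts span all exons, so they check the label only in so far as a deletion lowers the whole transcript. The groups are therefore called labelled KO and labelled WT, and every direction is that between the labels. Xist reached 1270 and 1100 CPM for KO replicates 2 and 3 and was 2.50 CPM or lower in the remaining 4 libraries, while the Y-linked Ddx3y stood at 0.37 and 0.189 CPM in those 2 and at 82.5 to 96.4 CPM in the others. Sex and the label can therefore not be told apart outside KO replicate 1.

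Histones package DNA into nucleosomes: pairs of H2A, H2B, H3 and H4 form the core, and H1 binds the linker DNA between cores. Replication-dependent histone genes sit in clusters and are transcribed in S phase, and their messages end in a conserved stem-loop in place of a poly(A) tail. That stem-loop is bound by the protein SLBP. Replication-independent variants such as H3.3, H2A.Z and macroH2A are encoded by separate, mostly intron-containing genes with ordinary poly(A) tails, and are made throughout the cell cycle and in cells that no longer divide. Some cluster genes can also give polyadenylated messages that read past the stem-loop, above all in differentiated cells.

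The 3′ stem-loop, which separates the usual cluster message from a polyadenylated one, is shown for the cluster genes that carry the results and for H2afx, a variant gene known to make both kinds of message. Sequences are from GENCODE M21 transcripts (GRCm38), 5′ to 3′, and capitals mark the 16-base stem-loop, flanked by 5 bases on each side.
Hist1h1c (chr13:23739507-23739532, plus strand): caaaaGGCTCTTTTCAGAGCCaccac
Hist1h1e (chr13:23621777-23621802, minus strand): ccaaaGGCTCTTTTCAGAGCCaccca
Hist1h2be (chr13:23585526-23585551, minus strand): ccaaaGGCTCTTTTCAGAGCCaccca
Hist3h2a (chr11:58955167-58955192, plus strand): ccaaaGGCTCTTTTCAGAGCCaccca
Hist1h4h (chr13:23531453-23531478, plus strand): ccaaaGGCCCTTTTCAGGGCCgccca
Hist1h4i (chr13:22040961-22040986, minus strand): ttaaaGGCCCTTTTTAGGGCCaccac
H2afx (chr9:44335235-44335260, plus strand): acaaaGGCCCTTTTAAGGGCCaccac
All of these sequences lie in the annotated 3′ UTR. A search of 55341 annotated genes for the 16-base histone stem-loop motif found it in 95 (0.172%), of which 47 were histone members, 46 of them cluster genes and the other H2afx. The commonest form, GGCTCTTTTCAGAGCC, was in 26 members, among them Hist1h1c, Hist1h1e, Hist1h2be and Hist3h2a. The H4 genes carried other stems, with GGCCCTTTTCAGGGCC in 7 members, all H4, and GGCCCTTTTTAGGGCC in 2, of which Hist1h4i is 1. Of the 8 cluster genes with a mean of at least 1 CPM, 6 held the motif, and Hist1h2bc and Hist2h2be did not hold it in their annotated transcripts.

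Of the 84 genes, 18 reached a mean of 1 CPM over the 6 libraries, and 59.1% of all genes in the table did. These were 8 of 68 cluster genes and 10 of 16 variants. Of the 66 under 1 CPM, 13 had no count in any library, 11 of them cluster genes and 2 variants (H1fnt and H2afb2). The cluster genes nearest the mark on the low side were Hist1h1b at 0.888 CPM and Hist1h1d at 0.536 CPM, and those nearest on the high side were Hist1h4i at 1.56 CPM and Hist1h1e at 1.69 CPM. At 1 CPM a library held between 25.6 and 53.0 counts, so counting error widens the spread of the cluster genes under it. The edgeR filter on low counts kept 27 members, 17 cluster genes and all 10 variants of at least 1 CPM. A filter on level favours genes that are high in either group, so counts over the 27 are not counts over the family.

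**Figure D1:**
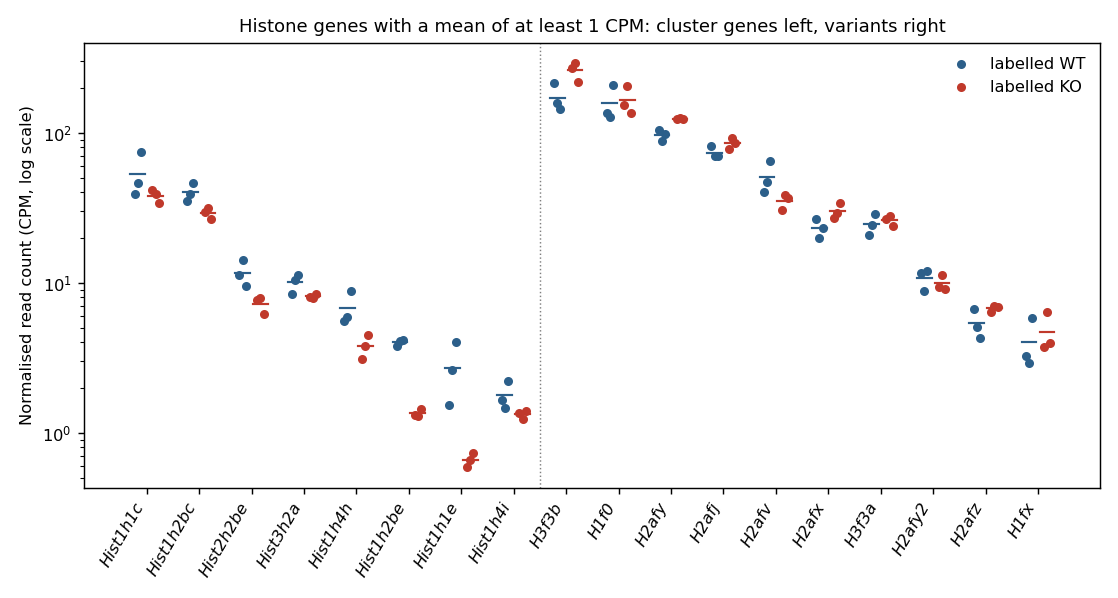
Normalised read count (CPM, log axis) of the 18 histone genes with a mean of at least 1 CPM, one point per library and a bar at each group mean (n = 3), cluster genes left of the dotted line and variants right. Hist1h1e and Hist1h2be show the widest gaps between labelled WT (blue) and labelled KO (red), and H3f3b is the highest gene.

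Compared per length of exon in GENCODE M21, the variants led. The annotation used for counting is not named in the sources used here, and the order depends on the gene models. For Hist1h1c the model ends at chr13:23740367 in GENCODE and at chr13:23739531 in RefSeq. H1f0, the linker histone of differentiated and resting cells, had 78.4 CPM per kilobase of annotated exon, and H3f3b, which encodes the same H3.3 protein as H3f3a, had 72.5. H2afj, an H2A variant gene, had 43.4 CPM per kilobase. The highest cluster genes, Hist1h2bc (H2B) and Hist1h1c (linker histone H1.2), followed at 30 and 29.3 CPM per kilobase, and H2afv, one of the genes for H2A.Z, at 26.3. Hist1h4h, at 11.2 CPM per kilobase, was the highest H4 gene. The lowest of the 18 on this scale were Hist1h1e at 0.875 and Hist1h2be at 0.601 CPM per kilobase, with annotated exons of 1930 and 4446 bases in all. H3f3a, at 7.23 CPM per kilobase, lay well under H3f3b although both encode H3.3.

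Cluster RNA in these libraries came from few genes. Hist1h1c and Hist1h2bc together held between 64.9% and 71.4% of the summed cluster CPM in each library. The 60 cluster genes under 1 CPM summed to 6.28, 7.41 and 8.23 CPM in the libraries labelled KO and to 7.97, 7.28 and 9.42 CPM in those labelled WT. These summed levels overlapped between the groups, with a log2 ratio of -0.17.

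The cluster genes were also set out by their annotated 3′ end. Of 23 cluster genes whose transcript ran more than 100 bases past the stem-loop, 5 reached 1 CPM (Hist1h1c, Hist1h1e, Hist1h2be, Hist1h4i and Hist3h2a), and the group's median level was 0.191 CPM. Of 23 whose transcript ended 100 bases or fewer after it, 1 did, Hist1h4h, and the median was 0.0804 CPM. Among 7 without a stem-loop but with more than 60 untranslated bases, Hist1h2bc and Hist2h2be did, and among 14 without a stem-loop and with 60 untranslated bases or fewer, 0 did. The annotated transcript ran 840 bases past the stem-loop in Hist1h1c, 1153 in Hist1h1e, 1643 in Hist3h2a, 1861 in Hist1h2be and 330 in Hist1h4i. Whether the reads lie past the stem-loop cannot be read from gene counts, and how RNA was selected for the libraries is not stated in the sources used here.

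The copies also differ in how uniquely their reads can be placed. Among the 11 cluster genes with no count, a median of 93.1% of the 50-base stretches of their transcripts (range 23.8% to 100%) also occurred in a transcript of another gene. The median was 54.1% among the 49 with counts under 1 CPM and 29.8% (range 0% to 45.8%) among the 8 of at least 1 CPM. Among the 11 was the near-identical pair Hist2h2aa1 and Hist2h2aa2, both at 100% and both at 0 counts. The sources used here do not say how reads matching several genes were counted, so in such copies lost reads and absent RNA cannot be told apart.

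**Figure D2:**
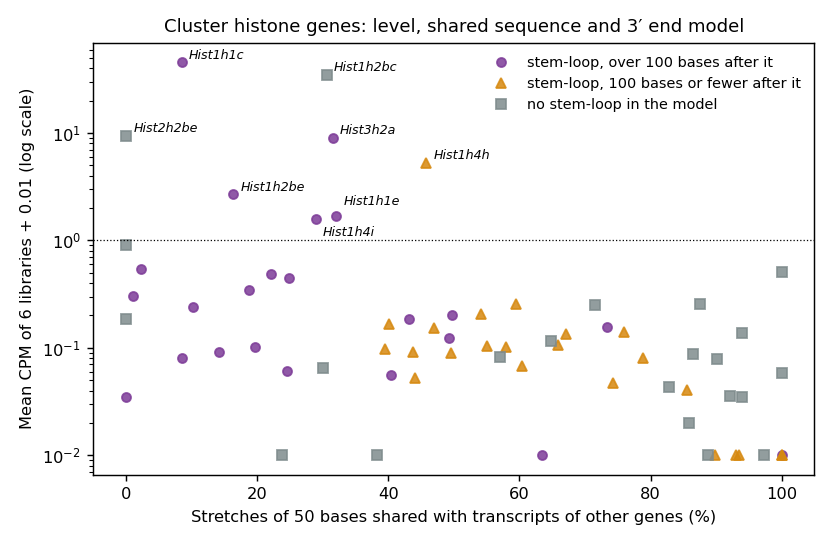
Mean level over 6 libraries (CPM + 0.01, log axis) of each of the 68 cluster genes against the percentage of 50-base stretches of its transcripts shared with another gene, with symbols for the annotated 3′ end. The 8 genes above the dotted line at 1 CPM share 45.8% or less, while the 11 genes at 0 counts, on the bottom line, share 23.8% to 100%.

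The comparison asked how the cluster genes and the variants differed between tongues labelled KO and WT. Hist1h1e and Hist1h2be, a linker histone gene and an H2B gene that overlap on chromosome 13, were lower in labelled KO, with labelled WT at 4.06 and 2.95 times the labelled KO level. The other 6 cluster genes of at least 1 CPM had negative fold changes that did not pass the test. Of the variants, H3f3b and H2afy had the smallest p-values among those with positive fold changes, and they did not pass either. By the edgeR test 2 of 17 cluster genes were lower and 0 higher, where 7.43% of all genes tested were lower and 4.81% higher. At an unadjusted p under 0.05, 5 cluster genes were lower and 1 higher, where the shares of all genes were 20.3% and 18.2%. DESeq2 called 5 lower and 0 higher (15.5% and 12.0% of all genes), and limma-voom 3 lower and 0 higher (8.02% and 6.17%). The family was proposed with this contrast known, so these shares are given as description.

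Hist1h1e, which encodes linker histone H1.4, had 0.588, 0.661 and 0.736 CPM in the libraries labelled KO and 1.52, 2.61 and 4.03 CPM in those labelled WT. Every library labelled KO lay under every library labelled WT, and the WT libraries spread widely among themselves. Its counts were 27, 25 and 39 against 53, 125 and 103. The means were 0.662 ± 0.0738 and 2.72 ± 1.26 CPM (SD, n = 3), a log2 fold change of -2.02 ± 0.38 (95% interval -2.90 to -1.14, edgeR adjusted p = 0.0325).

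Hist1h2be, an H2B gene, had 1.31, 1.30 and 1.45 CPM in the libraries labelled KO and 3.76, 4.09 and 4.14 CPM in those labelled WT. Both groups were tight and lay far apart. Its mean was 1.35 ± 0.0875 CPM in labelled KO and 3.99 ± 0.209 CPM in labelled WT (SD, n = 3), a log2 fold change of -1.56 ± 0.20 (95% interval -2.02 to -1.10, edgeR adjusted p = 0.0295). Without KO replicate 1, 2 or 3 or WT replicate 2, the edgeR adjusted p of the pair lay between 0.0537 and 0.129, with log2 fold changes of -1.94, -2.02, -2.11 and -2.05 for Hist1h1e and of -1.53, -1.53, -1.62 and -1.54 for Hist1h2be. Without KO replicates 2 and 3, the libraries high in Xist, the values were -2.22 and -1.64 (edgeR adjusted p = 0.285 for both). In those 5 settings 0 to 6 genes of the whole table were called lower.

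These genes are neighbours whose annotation overlaps, so they are not independent of each other. In GENCODE M21, Hist1h1e spans chr13:23620629-23622558 and Hist1h2be chr13:23583670-23621124, both on the minus strand of GRCm38. Of the 1930 exon bases of Hist1h1e, 496 also lie in an exon of Hist1h2be, and 0 of these are coding bases of Hist1h1e. The shared bases lie in the part of Hist1h1e behind its stem-loop and in the upstream exons of Hist1h2be, whose coding exon lies far downstream. In RefSeq the model of Hist1h1e ends at its stem-loop, at 782 bases, and the genes stand 652 bases apart. The annotation used for counting is not named in the sources used here, and reads of the shared stretch cannot be told apart between the pair. Hist1h2bc also lies in cluster 1, at chr13:23684199-23692908, and Hist1h1c at chr13:23738808-23740367, with no overlapping gene annotated at either.

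**Figure D3:**
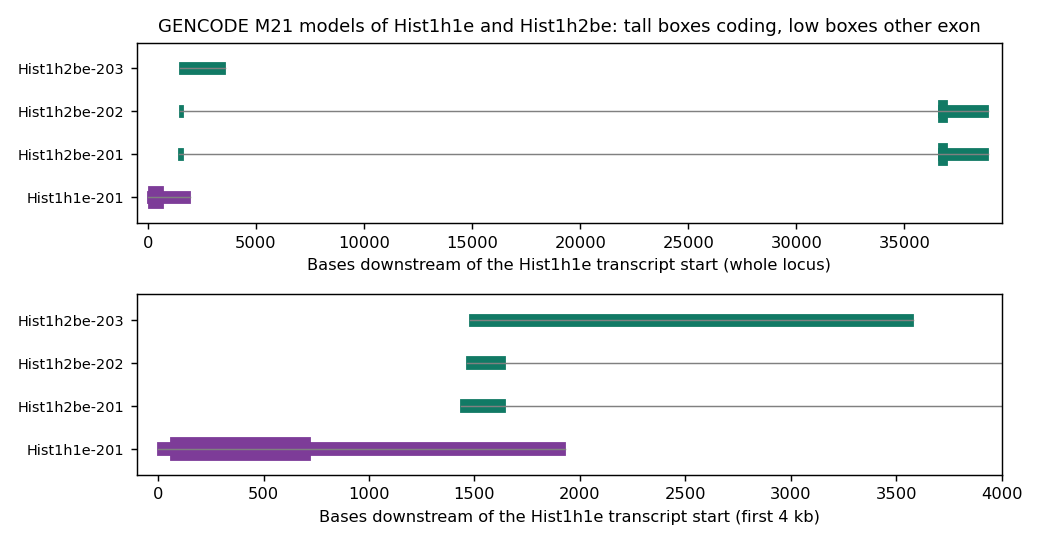
GENCODE M21 transcripts of Hist1h1e (purple) and Hist1h2be (green), drawn by distance in bases downstream of the Hist1h1e start, the whole locus above and its first part below, with tall boxes for coding sequence and thin lines for introns. The non-coding end of Hist1h1e and the first exons of Hist1h2be share 496 bases.

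Promoters are printed for the pair that was lower in labelled KO and for Hist1h1c, the highest cluster gene and another H1, which did not pass the test. Each is the 250 bases before a start taken from RefSeq (GRCm38.p6), 5′ to 3′ on the gene's strand. For Hist1h2be the start is that of its coding exon, which follows an upstream exon in the GENCODE transcripts Hist1h2be-201 and Hist1h2be-202. Capitals mark the motifs searched on both strands: the TATA box (TATAAA), the CCAAT box (CCAAT), the H1 box (AAACACA) and the octamer (ATTTGCAT).
Hist1h1e (chr13:23622559-23622808, minus strand): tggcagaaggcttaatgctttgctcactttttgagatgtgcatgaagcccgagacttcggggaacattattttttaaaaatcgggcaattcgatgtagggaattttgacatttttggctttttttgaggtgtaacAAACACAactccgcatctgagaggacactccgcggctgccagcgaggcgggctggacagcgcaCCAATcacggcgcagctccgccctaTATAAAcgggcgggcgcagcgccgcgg
Hist1h1c (chr13:23738557-23738806, plus strand): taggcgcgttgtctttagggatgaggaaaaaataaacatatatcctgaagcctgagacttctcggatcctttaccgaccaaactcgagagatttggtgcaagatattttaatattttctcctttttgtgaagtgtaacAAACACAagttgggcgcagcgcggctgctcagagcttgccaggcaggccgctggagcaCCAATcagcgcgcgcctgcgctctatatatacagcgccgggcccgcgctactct
Hist1h2be (chr13:23585971-23586220, minus strand): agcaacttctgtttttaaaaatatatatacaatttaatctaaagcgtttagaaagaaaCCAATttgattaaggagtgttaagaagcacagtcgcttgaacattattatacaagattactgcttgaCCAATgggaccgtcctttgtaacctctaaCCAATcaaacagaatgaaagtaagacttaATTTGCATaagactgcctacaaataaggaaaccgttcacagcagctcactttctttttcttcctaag
The H1 box is an element of linker histone promoters, and the octamer is an element of H2B promoters. Hist1h1e held the H1 box at -115, a CCAAT box at -52 and a TATA box at -27 from its start, and Hist1h1c held the H1 box at -112 and a CCAAT box at -54 without TATAAA in this window. The printed Hist1h2be window held CCAAT boxes at -192, -125 and -96 and the octamer at -67. The window before its upstream start (chr13:23621095-23621344), not printed, held CCAAT boxes at -182, -155 and -89 and no octamer. Over 77 promoters of 76 members, the H1 box was in 10 promoters, 5 of them among the 6 cluster H1 promoters, against 6.25% of all 32851 promoters. The octamer was in 7 of 17 cluster H2B and 7 of 18 cluster H2A promoters, against 1.60% of all. CCAAT was in all 6 H1, all 18 H2A and all 17 H2B promoters of the clusters, in 8 of 10 H3 and 3 of 12 H4, against 33.8% of all, and TATAAA was in 30 member promoters, against 12.4% of all. Matches are descriptions of letters, not of binding.

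Hist1h1c, the other linker histone gene of the clusters of at least 1 CPM, had 41.2, 39.3 and 33.8 CPM in the libraries labelled KO and 39.3, 46.1 and 74.3 CPM in those labelled WT. The groups overlapped, and WT replicate 3 stood apart from the other 5 libraries. This gave a log2 fold change of -0.48 ± 0.23 (interval at 95% from -1.02 to 0.05, edgeR adjusted p = 0.16). Without WT replicate 3 it was -0.17. The difference between this fold change and that of Hist1h1e was not tested.

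Hist1h2bc had 29.5, 31.5 and 26.4 CPM in labelled KO and 35.1, 39.3 and 46.5 CPM in labelled WT. Hist2h2be, the H2B gene of cluster 2 on chromosome 3, had 7.67, 7.88 and 6.19 CPM against 11.3, 14.1 and 9.57 CPM. In both genes all 3 libraries labelled WT lay above all 3 labelled KO. The log2 fold changes were -0.47 ± 0.14 for Hist1h2bc and -0.69 ± 0.19 for Hist2h2be, and the edgeR adjusted p-values of 0.0604 and 0.0522 missed the threshold.

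Among the H4 and H2A genes, Hist1h4h had 3.12, 3.78 and 4.47 CPM in labelled KO and 5.59, 5.90 and 8.83 CPM in labelled WT. These values did not overlap, and the log2 fold change was -0.83 ± 0.24 (edgeR adjusted p = 0.0568). Hist1h4i, with its 1.35, 1.24 and 1.40 CPM against 1.66, 1.46 and 2.23 CPM, had a log2 fold change of -0.41 ± 0.26 (edgeR adjusted p = 0.26). Hist3h2a, the highest cluster H2A gene, had 8.0, 7.94 and 8.36 CPM against 8.37, 10.5 and 11.3 CPM, a log2 fold change of -0.31 ± 0.16 (edgeR adjusted p = 0.191). In both genes the groups lay close without overlapping. No cluster H3 gene reached 1 CPM, and the highest, Hist1h3d, had 0.196, 0.344 and 0.509 CPM against 0.401, 0.396 and 0.782 CPM, with a log2 fold change of -0.53 ± 0.46 (edgeR adjusted p = 0.413).

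All 8 cluster genes of at least 1 CPM had a log2 fold change below 0, with a median of -0.59, and 13 of the 17 tested did, with a median of -0.35. Over all genes tested, 48.7% were below 0, 51.3% were above 0 and the median was 0.02. In 7 of the 17, every library labelled WT lay above every library labelled KO, and 22.1% of all genes tested did so, with 22.0% in the other direction. The 4 above 0 were Hist1h2bj, Hist2h2bb, Hist1h4d and Hist3h2ba, all under 1 CPM and named here after their values were seen. Hist1h2bj, an H2B gene with 0.305, 0.344 and 0.377 CPM in labelled KO and 0.115, 0.146 and 0.195 CPM in labelled WT, did not overlap between groups (log2 fold change 1.19 ± 0.39, edgeR adjusted p = 0.0717). It rests on 63 counts over the 6 libraries, and 59.4% of its 50-base stretches occur in other genes.

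**Figure D4:**
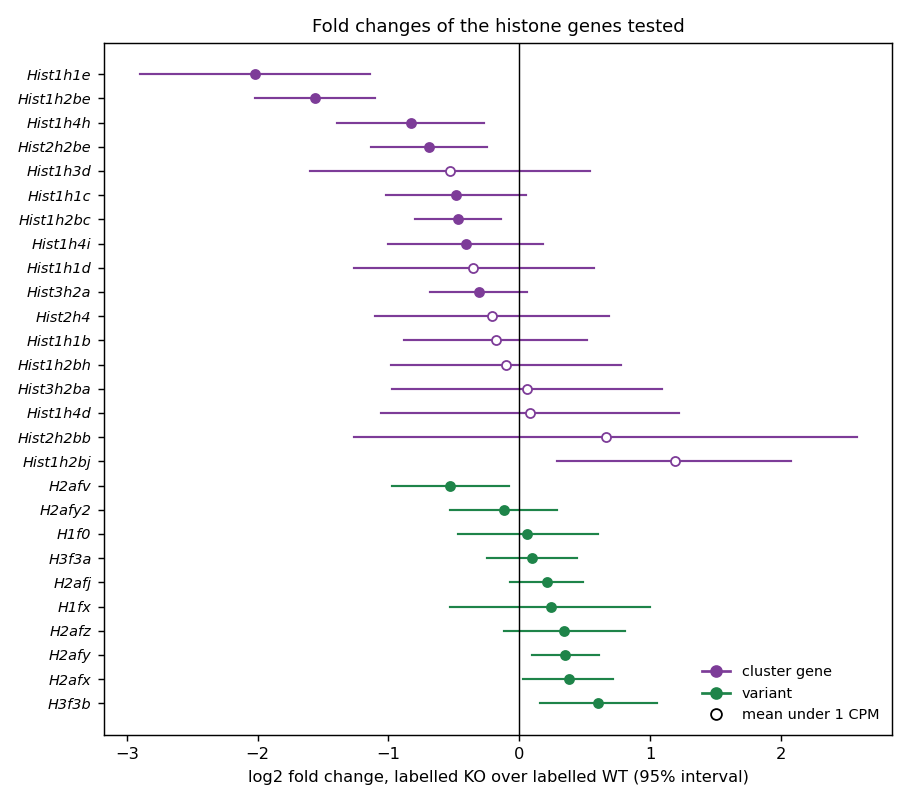
Log2 fold change (labelled KO over labelled WT) with its 95% interval for the 27 histone genes tested, cluster genes in purple, variants in green and genes under 1 CPM as open points. Hist1h1e at -2.02 and Hist1h2be at -1.56 lie farthest to the left, and 8 of the 10 variants lie right of 0.

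The variants had mostly small positive fold changes, and none passed the edgeR test: 0 of 10 were lower and 0 higher. The shares of all genes were 7.43% and 4.81%. At an unadjusted p under 0.05, 3 were higher (H3f3b, H2afy and H2afx) and 1 lower (H2afv), where 18.2% and 20.3% of all genes were. DESeq2 called H3f3b and H2afy higher (12.0% of all genes) and 0 lower, and limma-voom called 0 in either direction. The median log2 fold change was 0.22, with 8 above 0 and 2 below. In 4 of the 10 the groups did not overlap, and 44.1% of all genes tested did not.

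H3f3b had 271, 292 and 218 CPM in labelled KO and 214, 157 and 144 CPM in labelled WT, and H3f3a, the other H3.3 gene, had 26.8, 27.8 and 24.0 CPM against 20.7, 24.2 and 28.6 CPM. The groups did not overlap for H3f3b, where the nearest libraries were at 218 and 214 CPM, and did overlap for H3f3a. The log2 fold changes were 0.60 ± 0.19 (95% interval 0.16 to 1.05, edgeR adjusted p = 0.0689) for H3f3b and 0.10 ± 0.15 (edgeR adjusted p = 0.656) for H3f3a.

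Of the H2A variants, H2afy, which encodes macroH2A1, a large variant with a non-histone domain, had 123, 125 and 123 CPM in labelled KO and 104, 88.4 and 98.6 CPM in labelled WT. Its libraries labelled KO were nearly equal and all above those labelled WT, with a fold change of 0.35 ± 0.11 on the log2 scale (edgeR adjusted p = 0.0656). H2afy2, for macroH2A2, overlapped between groups, at 9.89 ± 1.2 CPM against 10.8 ± 1.71 CPM (SD, n = 3; log2 fold change -0.12 ± 0.18, edgeR adjusted p = 0.63). H2afx, whose protein is phosphorylated at DNA breaks, had 27.0, 29.3 and 34.1 CPM against 26.4, 20.0 and 23.3 CPM (0.38 ± 0.15, edgeR adjusted p = 0.11). For H2afx, too, the groups did not overlap, though 27.0 and 26.4 CPM lay close.

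The genes for H2A.Z gave opposite signs. H2afv had 30.4, 38.2 and 36.9 CPM in labelled KO and 40.1, 47.0 and 65.2 CPM in labelled WT, a log2 fold change of -0.53 ± 0.19 (edgeR adjusted p = 0.0895). H2afz had 6.43, 7.04 and 6.93 CPM against 6.71, 5.05 and 4.30 CPM, a log2 fold change of 0.34 ± 0.20 (edgeR adjusted p = 0.235). Groups did not overlap for H2afv and did for H2afz, and neither passed the test. H2afj had 77.5, 92.3 and 86.0 CPM against 81.1, 69.9 and 70.4 CPM (0.21 ± 0.12, edgeR adjusted p = 0.232). In both linker variants the groups overlapped and single libraries stood apart, with H1f0 at 154, 204 and 135 CPM against 136, 127 and 209 CPM (0.06 ± 0.23) and H1fx at 3.75, 6.35 and 3.94 CPM against 3.24, 2.90 and 5.86 CPM (0.24 ± 0.33). Their edgeR adjusted p-values were 0.863 and 0.619.

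Summed over all members, cluster and variant RNA had opposite directions. The cluster sum was 98.9, 101 and 91.0 CPM in labelled KO and 115, 131 and 170 CPM in labelled WT, and the variant sum 729, 834 and 677 CPM against 644, 550 and 662 CPM. Neither pair of groups overlapped. Of the variant sum, H3f3b, the highest variant, gave 271, 292 and 218 CPM in labelled KO and 214, 157 and 144 CPM in labelled WT. The cluster means were 96.9 ± 5.25 and 139 ± 28.6 CPM (SD, n = 3; log2 ratio -0.52), and the variant means 747 ± 79.6 and 619 ± 59.8 CPM (log2 ratio 0.27). Cluster genes made up 11.9%, 10.8% and 11.8% of all histone CPM in labelled KO and 15.1%, 19.3% and 20.5% in labelled WT. Without WT replicate 3 the log2 ratio of the cluster sum was -0.34.

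The mean cluster sums had the same direction in each core and linker family. The H1 sums overlapped between groups, at 43.3, 41.4 and 35.8 CPM in labelled KO and 42.5, 50.2 and 80.6 CPM in labelled WT. The sums of the other families did not overlap, though the nearest H2A sums, 9.51 CPM in labelled KO and 9.72 CPM in labelled WT, lay close. The log2 ratio was -0.52 for H1, -0.33 for H2A, -0.53 for H2B, -0.54 for H3 and -0.60 for H4, the H3 sum being only 1.22 ± 0.229 CPM in labelled KO and 1.77 ± 0.196 CPM in labelled WT (SD, n = 3). By cluster it was -0.53 for cluster 1, -0.62 for cluster 2 and -0.30 for cluster 3. Among the variants the H3.3 genes had a ratio of 0.55, the H2A variants 0.16 and the linker variants 0.07. The H3.3 sums did not overlap between groups. The H2A variant sums met at 274 CPM, the lowest labelled KO and highest labelled WT sum. The linker variant sums overlapped, at 158, 210 and 139 CPM in labelled KO and 140, 130 and 215 CPM in labelled WT. The few genes of at least 1 CPM set most of these sums, which are descriptions without a test. In whole tongue, fewer cells of a type and less RNA per cell cannot be told apart.

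**Figure D5:**
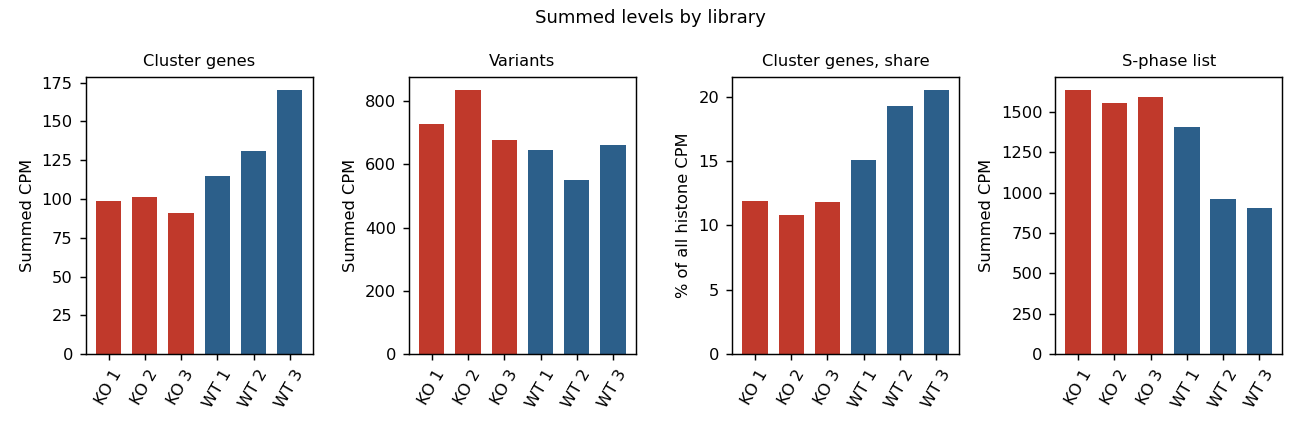
Summed level by library (labelled KO in red, labelled WT in blue): CPM of 68 cluster genes, CPM of 16 variants, cluster genes as a percentage of all histone CPM, and CPM of 40 S-phase genes. Cluster sums and the cluster share are lower in all 3 libraries labelled KO, while variant and S-phase sums are higher in all 3.

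Genes of S phase, in which cluster histones are made, had the opposite direction to the cluster sum. Hist1h1c and Hist1h2bc held 64.9% to 71.4% of that cluster sum. The summed 60 cluster genes under 1 CPM overlapped between groups (log2 ratio -0.17). Gene counts do not show how much of the cluster sum is the stem-loop message of S phase. The summed level of the S-phase genes was 1632, 1553 and 1591 CPM in labelled KO and 1404, 961 and 904 CPM in labelled WT, and WT replicate 1 lay nearest to the KO range. Of 40 tested, 6 rose and 0 fell by edgeR, 39 had a log2 fold change above 0, and the median was 0.57. Higher calls were made for 4.81% of all genes by edgeR. At an unadjusted p under 0.05, 29 were higher and 0 lower (18.2% of all genes higher), DESeq2 called 22 higher and 0 lower (12.0%), and limma-voom 14 and 0 (6.17%). All 6 edgeR calls were lost on leaving out KO replicate 1, 2 or 3 or WT replicate 2 or 3 (edgeR adjusted p 0.0523 to 0.163), and all 6 held without WT replicate 1. In the whole table, 4, 0 and 49 genes were called higher without KO replicate 1, 2 and 3. The number was 0 without WT replicate 2, 294 (1.81%) without WT replicate 3 and 2906 (17.9%) without WT replicate 1. Those that rose were Pcna, the replication clamp, the flap nuclease Fen1, the polymerase gene Pole, Rrm2 of ribonucleotide reductase, Uhrf1 of maintenance methylation and Cdk2. Pcna had 43.6, 38.8 and 42.2 CPM against 32.9, 25.4 and 22.9 CPM (0.62 ± 0.15, edgeR adjusted p = 0.0444). Mki67, a marker of cycling cells, overlapped between groups, at 284 ± 15.5 and 239 ± 40.1 CPM (SD, n = 3; 0.25 ± 0.16, edgeR adjusted p = 0.281).

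Genes that transcribe and process histone messages were mostly above 0 as well, 22 of 23 tested, with a median of 0.21. Slbp, which encodes the stem-loop binding protein, had 26.1, 24.0 and 26.1 CPM in labelled KO and 18.5, 19.1 and 12.9 CPM in labelled WT. All of its KO libraries lay above all WT libraries, and the test missed the threshold (0.59 ± 0.17, edgeR adjusted p = 0.055). Npat, the coactivator of the histone clusters, met between groups at 27.7 CPM, its lowest labelled KO and highest labelled WT level (0.39 ± 0.17, edgeR adjusted p = 0.135). By edgeR 1 of the 23 rose, Nelfe, a subunit of the negative elongation factor (0.50 ± 0.12, adjusted p = 0.0424), where 4.81% of all genes did. DESeq2 called 3 higher and limma-voom 2, against 12.0% and 6.17% of all genes, and 5 were higher at an unadjusted p under 0.05, against 18.2%. By each of these counts 0 were lower. The call of Nelfe was lost without any 1 of the libraries other than WT replicate 1 (edgeR adjusted p 0.0803 to 0.152). In those fits 0 to 294 genes of the whole table were called higher.

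Of 31 histone chaperone and deposition genes tested, 2 rose by edgeR, Chaf1a, a subunit of the replication-coupled chaperone CAF-1 (1.02 ± 0.26, adjusted p = 0.0454), and Nasp, a chaperone of H3, H4 and H1 (0.62 ± 0.17, adjusted p = 0.0496). Chaf1a had 45.1, 38.4 and 42.8 CPM in labelled KO and 29.4, 19.7 and 13.1 CPM in labelled WT. The list's median was 0.25, with 24 above 0 and 7 below. By edgeR 2 of 31 were higher, where 4.81% of all genes were, and 0 lower. At an unadjusted p under 0.05, 11 were higher and 1 lower, against 18.2% and 20.3% of all genes. DESeq2 called 6 higher and 1 lower (12.0% and 15.5% of all genes), and limma-voom 5 and 0 (6.17% and 8.02%). Both edgeR calls were lost without any 1 of the libraries other than WT replicate 1 (edgeR adjusted p 0.052 to 0.158), where 0 to 294 genes of the whole table were called higher.

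Cell-type markers differed between the labels to different extents. Calls below are by edgeR unless another method is named. The shares of all genes called lower and higher were 7.43% and 4.81% by edgeR, 15.5% and 12.0% by DESeq2 and 8.02% and 6.17% by limma-voom. At an unadjusted p under 0.05 they were 20.3% and 18.2%. All 25 fast muscle markers were below 0, and 10 fell, with sums of 51129 to 72171 CPM in labelled KO and 89378 to 163882 CPM in labelled WT. All 21 suprabasal keratinocyte markers tested were above 0, and 10 rose, with sums of 32919 to 46426 CPM against 17977 to 26942 CPM, while basal keratinocyte markers, 12 of 14 above 0 and 0 called in either direction by edgeR (at an unadjusted p under 0.05, 7 higher and 1 lower, by DESeq2 5 and 1, by limma-voom 0 and 1), summed to 14948 to 16408 CPM against 8058 to 13750 CPM. Those 3 lists had the highest sums of the marker lists, in tissue labelled as tongue. Every marker that the table holds had counts in each of the marker lists, testis germ cell markers included. Endothelial markers, 11 of 11 below 0 and 3 called, summed to 479 to 598 CPM against 665 to 855 CPM. Sums of T and B lymphocyte markers overlapped, at 24.7 to 38.5 CPM against 17.7 to 26.3 CPM, with 0 of 13 called by edgeR or limma-voom, 2 higher by DESeq2 and 3 higher at an unadjusted p under 0.05. Their part in the histone differences was not tested. With the mean of the fast muscle, basal keratinocyte or S-phase list as a covariate, the log2 fold changes were -0.71, -1.01 and -0.77 for Hist1h1e and -1.34, -1.48 and -1.44 for Hist1h2be, and neither passed (edgeR adjusted p 0.513 to 1), nor did any of the 15903 genes in these 3 fits.

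The members named here as known from the testis or egg were at 0 or near it. Hist1h2aa, Hist1h2ba, H1fnt and H2afb2 had no count in any library. Hist1h1t, the testis H1, had 6 counts in all 6 libraries together and the oocyte H1 gene H1foo had 13. H2afb1 and H2afb3, of the same symbol series as H2afb2, had 1 and 3 counts. Of 12 testis germ cell markers 4 could be tested, and the list summed to 6.32 to 8.17 CPM in labelled KO and 8.31 to 10.2 CPM in labelled WT. Hils1, the spermatid linker histone, which the member rule does not take in, was higher than these members, at 2.14, 2.67 and 3.34 CPM in labelled KO and 3.61, 4.77 and 4.18 CPM in labelled WT, with non-overlapping groups (log2 fold change -0.62 ± 0.23, edgeR adjusted p = 0.0965). The list's 1 call went the other way, with Tex101 higher in labelled KO at 1.18 ± 0.245 CPM against 0.294 ± 0.141 CPM (SD, n = 3; edgeR adjusted p = 0.0344), and 2 of the 4 tested were above 0. Over all genes tested, edgeR called 4.81% higher.

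In the authors' deposited table of all 6 libraries, signed as WT over KO, the fold changes of the cluster genes were positive for all 8 of at least 1 CPM. Hist1h1e stood at 1.64 ± 0.33 (SE, adjusted p = 3.19e-05) and Hist1h2be at 1.46 ± 0.22 (SE, adjusted p = 5.62e-09) in the authors' deposited table. The DESeq2 fit run here gave larger sizes, -2.04 and -1.57 as KO over WT. The DESeq2 version behind the deposited values is not named, so the sizes may not be on the same measure. At an adjusted p under 0.05, the authors' deposited table had 5 cluster genes lower in labelled KO, the others being Hist1h4h, Hist2h2be and Hist1h2bc, and 2 variants higher, H3f3b and H2afy. Of all genes with an adjusted p in the authors' deposited table, 16.3% were lower in labelled KO and 12.4% higher. The authors' deposited tables of 4 libraries each held KO replicates 1 and 2, without KO replicate 3, and 2 of the libraries labelled WT. They had fewer or other calls, and the share of all genes called in them was not counted here. With WT replicates 1 and 3, the authors' deposited table had Hist1h1e (adjusted p = 0.0141) and Hist1h2be (adjusted p = 0.0045) past the threshold and no other member. With WT replicates 2 and 3, the authors' deposited table had Hist1h1e, Hist1h2be, Hist1h2bc, Hist1h4h, H2afv and H3f3b past it, and not H2afy or Hist2h2be.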

How the data were processed

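Total RNA of 6 tongues was sequenced from TruSeq RNA libraries, per the labels' protocols. The authors deposited raw read counts per gene, whole numbers that are not normalised, and, per the file headers, DESeq2 values beside them: a mean normalised count (a signal of counts divided by size factors), the log2 fold change and its standard error, a test statistic (a score) and p-values. Tools named in the submitters' processing notes were HTSeq and DESeq2, with builds hg19 and mm10. Aligner, annotation, strand and the treatment of reads that match several genes are not named in the sources used here.

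Groups came from the sample titles. Counts were scaled by TMM and fitted with edgeR 4.0.16 (R 4.3.3, robust quasi-likelihood, group as the only term) after filterByExpr (minimum count 10, total 15), which kept 15903 genes. Standard errors are the absolute log2 fold change over the square root of F, so they and the 95% intervals are approximate. At 1 CPM a library holds 25.6 to 53.0 counts. DESeq2 1.42.0, limma-voom 3.58.1, other scalings and filters, the replicate block, list means as covariates and left-out libraries were tried. Tests were checked on simulated data.

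Genes were named by rule: Elavl1, members past the threshold, the highest member of each histone family, 6 further members by fold change, the variants tested, list genes past the threshold, and Slbp, Npat, Pcna and Mki67. The members, lists and rule were chosen with earlier results of these data known. Members were matched to GENCODE M21 by symbol, and 83 were used, since the symbol H2afb1 names different genes in GENCODE and RefSeq. Promoters were taken from RefSeq (GRCm38.p6) for 76 members.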

Additional observations from a re-analysis of the deposited data

How the results depend on the processing

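Of 338 alternative values for single histone genes, 280 kept direction and side of the threshold, 18 lost the call, 19 gained it and 21 reversed, and of 221 for other genes 90 lost the call. All 18 losses were of Hist1h1e and Hist1h2be, the only members with a call to lose. Each of them was called in 8 of its 17 alternatives. The 2 cluster genes lower in labelled KO became 5 by DESeq2 (15.5% of all genes lower) and 4 with the replicate block (13.3%). They became 0 with the muscle, basal keratinocyte or S-phase covariate or with a term for Xist above 100 CPM. In these 4 fits 0 of all 15903 genes passed. At an unadjusted p under 0.05, 2, 3, 2 and 3 cluster genes were lower in them, and 196, 576, 328 and 1860 of all genes. Without the libraries high in Xist, which left 1 KO library, the cluster median was -0.49. Leaving out 1 library gave 0 to 6 cluster genes lower. The count was 0 without KO replicate 1, 2 or 3 or WT replicate 2, where 6, 0, 3 and 1 genes were lower in the whole table. At an unadjusted p under 0.05, 5 or 6 cluster genes were lower in those fits. So were 2262, 2334, 2917 and 2329 of all genes, of 15967 to 16204 tested. The adjusted count was 6 without WT replicate 1 (18.1% of all genes lower) and 3 if WT replicate 3 was left out (2.69%). The cluster median of -0.35 was -0.02 with the basal covariate, -0.04 with the muscle or S-phase covariate and -0.17 without WT replicate 3. Variants called lower rose from 0 to 1 (H2afv) with the block and 0 to 1 on leaving out a library. Variants called higher rose from 0 to 2 by DESeq2 (12.0% of all genes), 1 with the block (10.7%) and 0 to 3 on leaving out a library, the 3 without WT replicate 1 (17.9%). Library totals alone shifted every log2 fold change by 0.17. The log2 ratio of the summed levels then was -0.34 for the cluster genes, in place of -0.52, and 0.44 for the variants, in place of 0.27. With the muscle, basal and S-phase covariates in turn, Hist1h3d was at 0.70, 0.06 and 0.22 and H2afz at -0.04, -0.02 and -0.15. With the muscle covariate Hist3h2a was at 0.08, H2afv at 0.08, H3f3b at -0.06 and Npat at -0.14. With the S-phase covariate Hist1h1c was at 0.27, Hist3h2a at 0.06, H2afv at 0.06, Npat at -0.06 and Elavl1 at -0.02, and with the basal covariate Hist1h1c was at 0.12. H1f0 was at -0.03 with the Xist term, -0.06 without the libraries high in Xist, and -0.12 to 0.32 on leaving out a library, below 0 without KO replicate 2 (-0.12) and WT replicate 1 or 2 (-0.02 and -0.08). H1fx was at -0.08 and -0.11 in those 2 settings and at -0.05 (without KO replicate 2) to 0.60 on leaving out a library. The cause was not tested. Replicate numbers did not pair samples (correlations of 0.122, -0.17 and 0.184, and not every sample was closest to its own number). The Xist settings at 100 CPM were chosen after seeing the data, and the planned one at 1 CPM was not run because levels near 1 CPM did not separate the libraries. For the 66 genes under 1 CPM counts are few, and for shared copies among them lost reads cannot be told apart from absent RNA.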
